A study of Mus musculus with 12 samples.

Results

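The genes described here code for proteins that detect foreign or misplaced RNA and DNA, or that set how strongly such nucleic acids are answered. They were followed through lists of RNA stretches enriched with an antibody to N6-methyladenosine (m6A), a methyl mark on adenosines of RNA. The 10 genes were Ddx58, Ifih1, Dhx58, Tlr3, Tlr7, Tlr9, Pld4, Zbp1, Adar and Irf7, of which 9 were among the 17415 genes with a peak in either list. A peak was counted for a gene when the annotation assigned it to that gene or when it had been called on that gene's exons. By this rule the genes held 23 of 27292 peaks of the list from allergic lung and 21 of 26102 peaks of the list from control lung.

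Female BALB/c mice aged 6 to 8 weeks were used. Mice of the OVA group received ovalbumin with aluminium hydroxide on day 0 and again on day 7, and inhaled an aerosol of 3% ovalbumin for 30 min on each day from 14 to 20, while the PBS group was given PBS as the control. Lung tissue was taken on day 21, after a bronchial provocation test with nebulized methacholine, when blood and airway lavage fluid were also collected. Whether the sequenced lungs had been lavaged is not stated. Each of the 3 mice per group gave an immunoprecipitated (IP) and an input library. Each group has 1 peak list for all its mice, so no value belongs to a single mouse, no spread between mice can be given, and no difference between the lists was tested.

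Cells sense nucleic acids in separate compartments. Helicases in the cytosol bind viral or structured RNA and signal to interferon genes, while Toll-like receptors in endosomes read RNA and DNA taken up from outside. In lung, both systems are known for the response to respiratory viruses, and plasmacytoid dendritic cells, B cells, macrophages and epithelium are among the cells that carry them. The lists give no expression level and no read depth per peak, and a peak says only that fragments of an RNA were recovered with the antibody. In whole lung, fewer cells of a type and less RNA per cell cannot be told apart.

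Of the 10 genes, 9 had at least 1 peak in the OVA list and the same number had at least 1 in the PBS list. Irf7 had none in either. None of the 9 had a peak in 1 list alone, whereas over all 17415 genes 10.2% had a peak in the OVA list only and 6.87% in the PBS list only. When an FDR under 0.01 and a fold enrichment, the ratio of IP over input in a peak, of 4 or more were required, Pld4 and Ifih1 had a peak in the OVA list alone and the other 7 genes in both. At these limits 12.4% of the 13615 genes with a peak in either list had it in the OVA list only and 8% in the PBS list only, and with so few genes nothing is read from the 2. At the level of single peaks, 5 of the 23 OVA peaks shared no exonic base with any PBS peak, beside 19.4% of all OVA peaks. The reverse held for 1 of the 21 PBS peaks, beside 14.5% of all PBS peaks. The 5 OVA peaks without a PBS counterpart lay on Pld4, Zbp1, Adar, Ddx58 and Ifih1, 1 on each gene. On Pld4, Zbp1 and Adar they were labelled 5′ UTR, the untranslated stretch at the start of a messenger RNA. That label applied to 14.2% of all OVA peaks without a counterpart. The authors had already shown Pld4 and Zbp1 for 5′ UTR peaks in these same data, so nothing is read from this comparison. Of these 5 peaks, 1, at the start of Pld4, met the stricter limits.

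Fold enrichment is given here with its percentile, the percentage of peaks in the same list that had a lower fold enrichment. It is not compared as a ratio across the lists. The 23 OVA peaks ranged from 1.69 to 41.3 with a median of 6.01, and the whole OVA list had a median of 5.59. The 21 PBS peaks ranged from 1.74 to 20.7 with a median of 5.38, and the whole PBS list had a median of 5.44. These genes therefore sat near the middle of each list as a group while single peaks ran from percentile 5.0 to 99.0 among OVA peaks and from 6.0 to 93.7 among PBS peaks. All 23 and all 21 peaks had a false discovery rate (FDR) under 0.05, as did 98.1% of all OVA peaks and 97.8% of all PBS peaks.

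**Figure D1:**
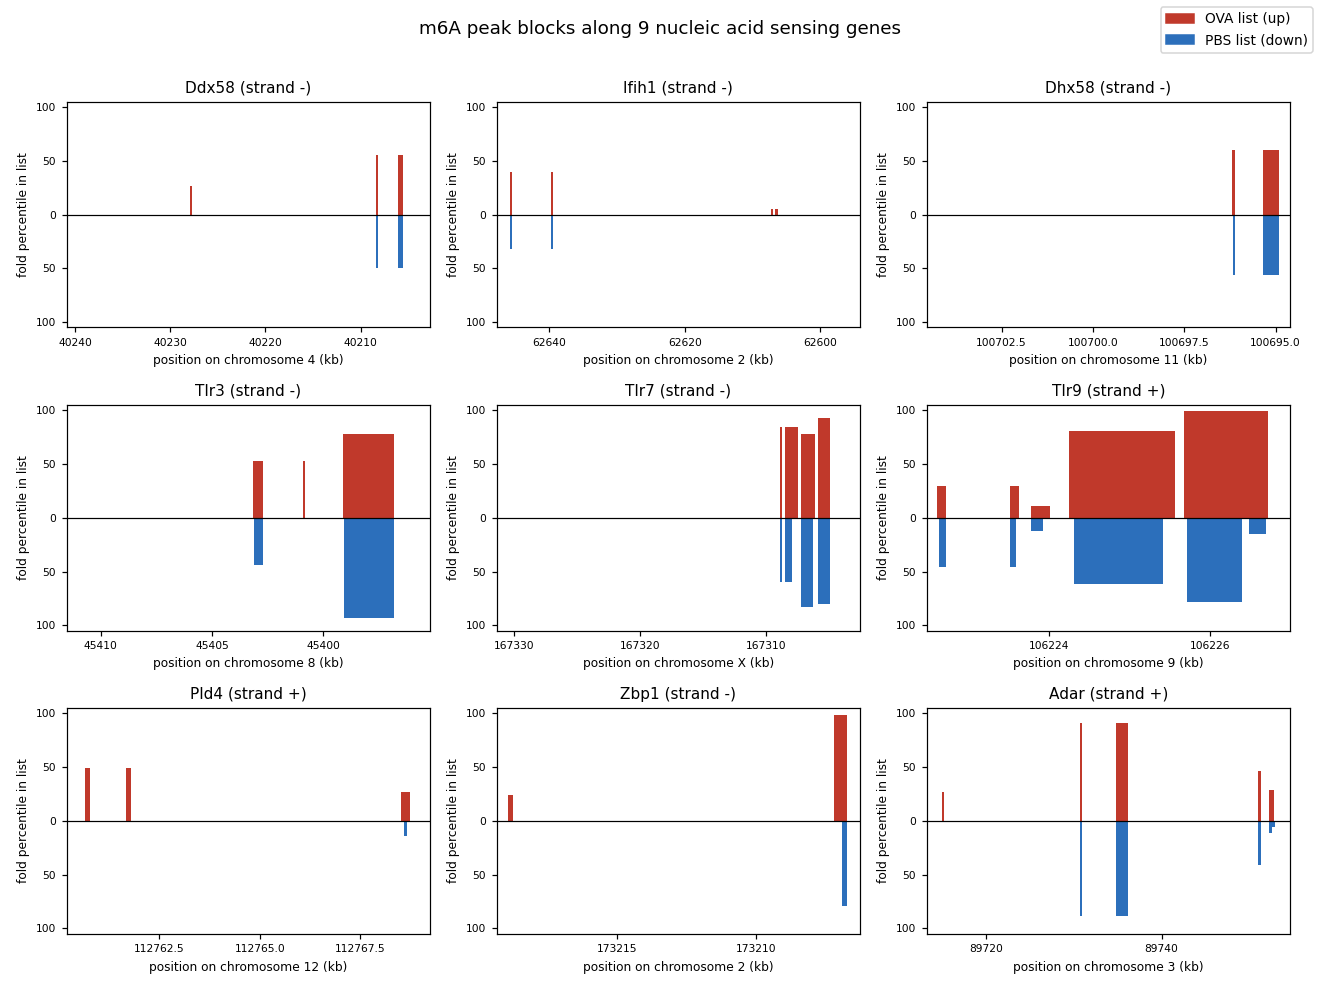
Exonic blocks of the peaks inside 9 of the genes, drawn from the 5′ end on the left to the 3′ end on the right, with position in kb across and the fold enrichment percentile within the list as bar height (OVA upward, PBS downward). The narrowest blocks are drawn wider than their scale. OVA bars at the left ends of Pld4, Zbp1 and Adar have no PBS bar beneath them, and the Tlr9 bar at percentile 99.0 covers PBS bars at 78.7 and 14.7.

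Among the cytosolic RNA helicases, Ddx58 codes for RIG-I, which binds RNA ends that carry a triphosphate. Its main peak joined a block of 594 bases at the 3′ end, chr4:40205513-40206106, to 97 bases of an exon further upstream, chr4:40208185-40208281, in the OVA list. The PBS peak used the same upstream block and 564 bases of the terminal one. OVA fold enrichment was 6.58 (percentile 55.6) and PBS fold enrichment 5.38 (percentile 49.4), so the peak stood close to the middle of both. The OVA list held a further Ddx58 peak of 211 bases at chr4:40227711-40227921, placed in exon 4 of 4 of a short annotated transcript, with a fold enrichment of 3.02 (percentile 26.4). No PBS peak overlapped it.

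Ifih1 codes for MDA5, the sensor of long double-stranded RNA. Both lists placed a peak on exon 1 of 16, where a block ran up to the splice site and continued into the next exon by 30 bases (OVA) or 1 base (PBS). The blocks on exon 1 shared the base at the splice site, chr2:62645478, and measured 300 bases (OVA) and 359 bases (PBS). With fold enrichments of 4.18 (percentile 39.4) and 3.37 (percentile 31.6), this peak lay below the middle of both lists. A second OVA peak covered 161 and 19 bases around exon 9 of 16, chr2:62606296-62606991. It was called on Ifih1 but assigned by the annotation to Fap, the gene of a fibroblast protease next to it, and its fold enrichment of 1.69 (percentile 5.0) was the lowest among the 23 OVA peaks.

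Dhx58 codes for LGP2, a helicase without the signalling domains of the other two that modulates their activity. Its peak at the 3′ end began at the same base in both lists, chr11:100694914, and covered 506 exonic bases (OVA) or 477 (PBS). The fold enrichment was 7.5 (percentile 60.1) and 6.45 (percentile 56.0). A stronger peak was assigned to Dhx58 by the annotation but called on the neighbouring Kat2a, a histone acetyltransferase gene. That peak had identical ends in both lists, chr11:100704746-100705346, lay outside the RefSeq bounds of Dhx58, and had percentiles of 94.0 (OVA) and 88.1 (PBS). Dhx58 itself thus carried a single peak in each list.

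Endosomal receptors came next, and the longest peaks of the 10 genes were on Tlr3, the receptor for double-stranded RNA. It had a peak of 2275 exonic bases in the OVA list, chr8:45396832-45399106, and of 2245 bases in the PBS list. Each was longer than 99.4% of the peaks in its list. The OVA peak had a fold enrichment of 12.4 (percentile 78.1) and the PBS peak 20.7 (percentile 93.7), the highest of the 21 PBS peaks. The other Tlr3 peak, on exon 4 of 7, had percentiles of 52.6 (OVA) and 43.7 (PBS), so the order of the lists differed between the peaks of this gene.

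Tlr7, which reads single-stranded RNA, had 3 peaks within the gene in each list, all toward the 3′ end of its genomic span. The last of them had the same ends in both lists, chrX:167304929-167305882, with OVA and PBS fold enrichments of 21.3 (percentile 93.1) and 12.7 (percentile 80.7). The peak before it, in exon 5 of 5, had percentiles of 78.1 and 82.8. The most upstream of the 3 was labelled 5′ UTR in both lists. It covered 1073 exonic bases at percentile 84.5 among OVA peaks and 567 bases at percentile 59.8 among PBS peaks. All 567 PBS bases lay within the OVA peak. A weak PBS peak at chrX:167347126-167347305, fold enrichment 1.77 (percentile 6.5), was assigned to Tlr7 but called on Prps2, a nucleotide synthesis gene. It is the 1 PBS peak without an OVA counterpart, and it lay outside the RefSeq bounds of Tlr7.

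Tlr9, the receptor for DNA with unmethylated CpG, was covered along most of its length, with 4 OVA and 5 PBS peaks. At least 4 called peaks were found for 10.7% of genes with an OVA peak and 10.9% of genes with a PBS peak, and among the 10 genes for Tlr9 and Adar in each. The strongest OVA peak of all 10 genes was at the 3′ end of Tlr9, chr9:106225684-106226733, with a fold enrichment of 41.3 (percentile 99.0). It spanned both a PBS peak of 690 bases at percentile 78.7 and a PBS peak of 211 bases at percentile 14.7, which are separated by a gap. The peak before it covered 1320 bases at percentile 80.9 (OVA) and 1110 bases at percentile 61.9 (PBS). Toward the 5′ end the order was the other way round. The peak that joins the exons of Tlr9 had percentiles of 29.2 (OVA) and 46.1 (PBS), and the short peak after it had fold enrichments of 2.03 and 2.08. Added up, OVA peaks covered 2821 exonic bases of Tlr9 and PBS peaks 2313.

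Pld4 codes for an exonuclease of the endolysosome that degrades single-stranded nucleic acids before they reach Toll-like receptors. Its peak at the 3′ end was among the shortest of the PBS list, with 61 bases at chr12:112768602-112768662, and only 1.6% of PBS peaks were shorter. The OVA peak around it had 239 bases. The fold enrichments of 3.06 (percentile 26.9) and 2.22 (percentile 14.5) were low in both lists. The OVA list added a peak at the start of the gene, built of 129 bases at chr12:112760655-112760783 and 111 bases at chr12:112761676-112761786. Its fold enrichment was 5.48 (percentile 49.3), its log10 FDR was -18.6, and no PBS peak overlapped it.

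Zbp1 and Adar both carry domains that bind the left-handed Z form of nucleic acids. Zbp1 couples the sensing of Z-RNA to cell death through Ripk3, and Adar converts adenosine to inosine in double-stranded RNA, which keeps the cell's own RNA from being sensed by MDA5. The Zbp1 peak at the 3′ end had a fold enrichment of 35.9 (percentile 98.5) over 479 bases in the OVA list, chr2:173206702-173207180. Among PBS peaks it had 12.3 (percentile 79.4) over 150 bases, all of them inside the OVA peak, and its log10 p value was -3.38 against -41.2 in the OVA list. A p value also depends on the number of reads at a peak, which is not given. The gap between these values is therefore not a measure of methylation. Zbp1 also had an OVA peak of 180 bases at its 5′ end, chr2:173218744-173218923, with a fold enrichment of 2.85 (percentile 24.1) and no PBS counterpart.

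Adar had 4 peaks in each list, but not the same 4. The strongest joined 82 bases of a 5′ exon, chr3:89730757-89730838, to a block that began at chr3:89734842 and ran for 1327 bases (OVA) or 1357 bases (PBS). OVA fold enrichment there was 19.4 (percentile 91.3) and PBS fold enrichment 16.4 (percentile 88.8). A peak of 390 bases at chr3:89750930-89751319 had identical ends in both, at percentiles 46.3 and 41.4. Near the 3′ end, an OVA peak of 570 bases at percentile 29.2 spanned PBS peaks of 300 and 151 bases at percentiles 11.1 and 6.0. Part of that stretch was also called on Chrnb2, whose own peaks there had fold enrichments of 1.72 (OVA) and 1.71 (PBS). The OVA list alone had a peak at an upstream transcript start, chr3:89715082-89715202, with a fold enrichment of 3.08 (percentile 27.0). With a log10 FDR of -1.64 it had the highest FDR of all peaks of the 10 genes.

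Irf7, the transcription factor that amplifies type I interferon genes, had no peak in either list, and no peak of another gene overlapped its RefSeq span, chr7:141263183-141266499. The nearest peak on one side ended 433 bp away in both lists and was called on Phrf1, at fold enrichments of 14.9 (OVA) and 5.18 (PBS). The OVA peak, chr7:141262690-141262750, had the much shorter span and a log10 FDR of -3.33. The PBS peak began at chr7:141261797 and had a log10 FDR of -14.8. On the other side the nearest lay 30711 bp (OVA) or 30681 bp (PBS) away, on Deaf1. The absence of a peak does not tell whether Irf7 RNA was present.

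Across all 10 genes, 18 OVA peaks overlapped a PBS peak and could be set beside it. The percentile was higher in the OVA list for 14 of the 18, and over all 22006 such OVA peaks it was higher in 55.8%. The OVA peak had more exonic bases in 13 of the 18 and the same number in 3, beside 47.7% and 16.7% of all such peaks. Leaving out the pair called on Kat2a, the percentile was higher in the OVA list for 13 of 17. The 4 pairs with a lower percentile in the OVA list were on Tlr3, Tlr7 and Tlr9, so no helicase, Pld4, Zbp1 or Adar pair was among them. Each of these Tlr genes also had a pair with the higher percentile in the OVA list. Examples, OVA first, are 52.6 and 43.7 on Tlr3, 84.5 and 59.8 on Tlr7, and 99.0 and 78.7 on Tlr9. Nothing is read from this split of so few pairs. Over all 23 OVA and 21 PBS peaks of the genes, paired or not, the median length was 479 and 390 exonic bases, against 329 and 327 over all peaks. Pairs on the same gene are not independent of each other. The authors had also named Zbp1 and Pld4, from these same data, as changed in methylation and expression. No shift of the genes as a group is therefore read from these counts. Whether the lists differ in these genes beyond the spread between mice was not tested.

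**Figure D2:**
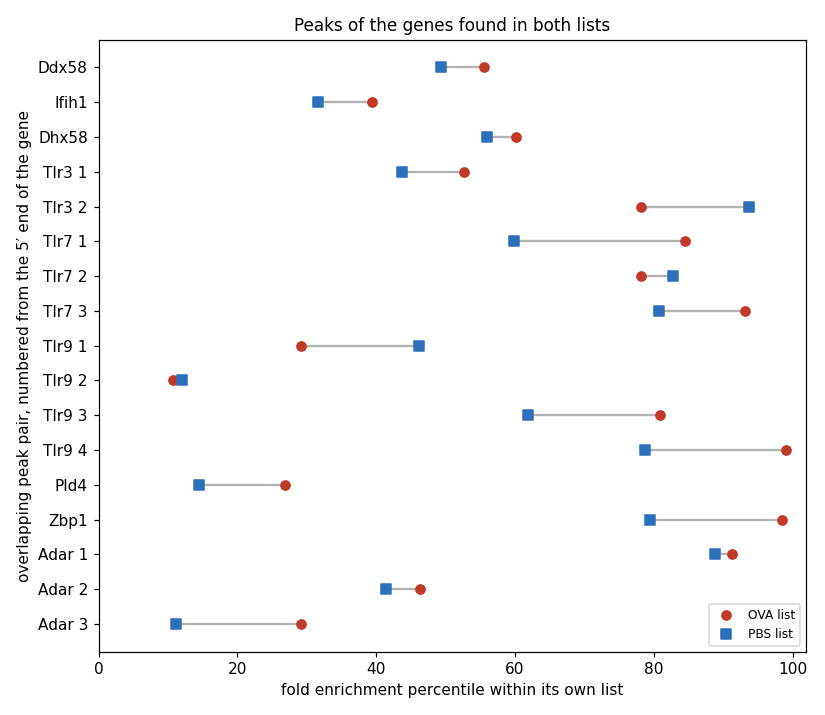
Fold enrichment percentile within its own list (horizontal axis, percent of peaks with a lower fold enrichment) of the 17 peak pairs called on the genes, with OVA as circles and PBS as squares, numbered from the 5′ end of each gene. Circles lie to the right of squares in 13 of the 17 pairs, and the Tlr3 pair at 78.1 and 93.7 is among the exceptions.

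Peaks at transcript starts could be read against RefSeq sequence of the start regions (GRCm38.p6, windows of 300 bases), which were given for 7 of the 10 genes. Peaks touched windows of Adar, Pld4 and Tlr9, all on the plus strand. The m6A consensus is best known as GGAC followed by any base other than G, and the 18 pentamers of its wider form are called DRACH. These were searched on the transcribed strand. The OVA peak of Adar at chr3:89715082-89715202 held GGACT at its base 5 and GGACC at its base 76, and no other of the 18. At the same 121 positions such a GGAC pentamer was held by 30.8% of all 32851 windows and any of the 18 by 85%. These positions lie ahead of the transcript start of each window, so the shares describe sequence upstream of starts and not transcribed RNA, and nothing is read from them about the peak. The stretches of 30 bases around the matches are shown because this peak was in the OVA list alone, with the pentamer in capitals.
Adar chr3:89715082-89715111: gttgGGACTagccgggaagggcgcagcctt
Adar chr3:89715144-89715173: cgcgcgggtaagaGGACCctggtcccgcac

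The Pld4 peak found in the OVA list alone began at the transcript start of its window, and the 50 bases of it within the window held GAACA but no GGAC pentamer of the kind above. The Tlr9 peak of the OVA list also began at the transcript start, and its 50 bases held AGACC as well as the pentamer GAACA. The PBS peak of Tlr9 began further in, at chr9:106222628, and its 20 bases within the window held GAACA, while 24.1% of all windows held any of the 18 at those positions. Of all windows, 15.4% held a GGAC pentamer at the 50 positions of the OVA peaks and 54.4% held any of the 18. A match is a string of letters and does not show a methylated base. The stretches are shown for these matches, again with every DRACH pentamer in capitals.
Pld4 chr12:112760655-112760684: caGAACAaagaggaagtgaatggaaggggg
Tlr9 chr9:106222618-106222647: ttctctgagAGACCctggtgtgGAACAtca

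Interferon regulatory factors such as Irf7 bind repeats of GAAA, and the core AANNGAAA was searched on both strands. It was found in 4 of the 9 windows of these genes, those of Ddx58, Ifih1, Tlr3 and the downstream start of Adar, and in 23.9% of all windows. The longer GAAANNGAAA, each match of which also holds AANNGAAA, was found in the windows of Ddx58 and Ifih1 and in 3.44% of all windows. At the downstream Adar start the match lay just ahead of the strong peak present in both lists, which begins at chr3:89730757. In both lists the 11 bases of that peak within the window held GAACT. Any DRACH pentamer was held by 11.4% of all windows at those positions. The run across the start of the peak is given with the AANNGAAA match in capitals and gaact in lower case.
Adar chr3:89730736-89730765: ccttttcaaggAAACGAAAgtgaactctgg

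The other genes of nucleic acid sensing were read from a list of 47. Of these, 40 had a peak in both lists, 3 in the OVA list only, 0 in the PBS list only and 4 in neither, beside the 10.2% and 6.87% of all genes with a peak that had it in the OVA or the PBS list only. Among sensors and nucleases of cytosolic DNA, 10 of 11 had a peak in both lists and Rnaseh2b, a subunit of the enzyme that removes RNA from RNA-DNA hybrids, had 1 in the OVA list only, with a fold enrichment of 3.31. Ddx41, a DEAD-box helicase that binds DNA, counts here as in both lists by assignment, but its OVA peak was called on the neighbouring Fam193b. Peaks called on Ddx41 itself were in the PBS list only. Their fold enrichments were 1.7 and 1.29, the latter at a log10 FDR of -0.683. Among RNA sensors and their cofactors 10 of 12 were in both. Ddx60, a helicase that aids RIG-I, had OVA peaks of 61 and 60 bases, with fold enrichments of 1.56 and 2.02, the latter at a log10 FDR of -1.25. Among endosomal genes 8 of 10 were in both, and Pld3, the close relative of Pld4 with like activity, had an OVA peak alone. That peak was labelled 5′ UTR, as was the OVA peak at the start of Pld4, and had 150 exonic bases and a fold enrichment of 3.23 (percentile 29.0).

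All 4 genes of cell death downstream of Zbp1 (Ripk1, Ripk3, Mlkl and Casp8) had a peak in both lists, as did 7 of 8 signalling genes and Adarb1, the other active editing enzyme. Oas2, Myd88, Tbk1 and Adarb2 had none in either. The highest fold enrichments among the 47 genes were on Dhx9, an RNA helicase that unwinds double-stranded RNA, at its 3′ end. With 520 it ranked 3 among all peaks of the OVA list, and with 162 it ranked 4 in the PBS list. Trim25, a ubiquitin ligase of the RIG-I pathway, followed with 90.9 (OVA percentile 99.8) and 54.6 (PBS percentile 99.7). Next came Eif2ak2, the kinase PKR that binds double-stranded RNA, with 46.7 (OVA percentile 99.2), and its overlapping PBS peak had 13.3 (PBS percentile 82.3). Zc3hav1, a protein that binds CpG-rich viral RNA, had 38.5 (PBS percentile 99.1), and its overlapping OVA peak had 15 (OVA percentile 84.5). These peaks were called on Eif2ak2 and Zc3hav1 but assigned by the annotation to Gm6548 and Zc3hav1l. None of the 23 OVA peaks described above reached a value as high as Eif2ak2 did there.

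The lung label was read from marker genes as having a peak or not. A peak in both lists was found for 5 of 6 epithelial markers and all 3 endothelial markers, and Sftpc, a defining marker of alveolar type II cells, had none. For plasmacytoid dendritic cells, which are known for high Tlr7, Tlr9 and Irf7, 3 of 6 markers (Siglech, Tcf4 and Ccr9) had a peak in both lists. Bst2, Spib and Klk1 had none, and the Siglech peaks of the OVA and PBS lists did not overlap. Among B cell markers, Ms4a1 and Pax5 had peaks in both lists and Cd79a had none. Of 4 macrophage markers, Mrc1 and Csf1r had peaks in both lists and Marco and Adgre1 had none. Of 4 eosinophil markers Ccr3 alone had a peak, again in both lists. The Ccr3 peak covered 1875 exonic bases in the OVA list (percentile 79.7, log10 FDR -252). In the PBS list it covered 61 (percentile 54.4, log10 FDR -1.87). Siglech went the other way in percentile, with 40.2 (OVA) and 69.2 (PBS). A peak in both lists thus does not mean that the peaks were alike. None of these markers had a peak in 1 list only, beside 10.2% (OVA) and 6.87% (PBS) of all 17415 genes with a peak in either list. The part of cell numbers in the peaks described here was not tested.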

How the data were processed

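Lung RNA of 3 OVA and 3 PBS mice gave 6 IP and 6 input libraries. The authors trimmed reads with FASTP, aligned them with HISAT2, used exomePeak for peak calling and ChIPseeker for annotation, and deposited 1 peak list per group. They also compared the groups, with exomePeak for methylation and edgeR for expression, and the values of those comparisons are not used here. How replicates were merged is not stated. The deposited fold enrichment is a ratio of IP over input, and each deposited score is a log10 p value or log10 FDR, both from the authors' caller. Depth per peak is not given, so fold enrichments have no interval. Starts in the lists count from 0 (649 OVA peaks begin at the annotated transcript start when read so, 20 when read from 1), and 1 was added. Positions fit GRCm38: 97.7% of OVA peaks called on RefSeq protein-coding genes overlapped the gene.

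Peaks were called shared when their exonic blocks overlapped by at least 1 bp, regardless of strand, and each OVA peak was paired with the PBS peak of largest overlap. All 10 genes matched the gene table. Members and lists were chosen with earlier results of these data known. Of the 47 other pathway genes, those with a peak in 1 list only and the 3 with the highest fold enrichment per list at an FDR under 0.05 were to be named. Other pathway genes, neighbours and markers were named after their values were seen, as were the pair counts and the searches of start regions, which were also added then. A planned marker gene is not reported here. Alternatives were stricter FDR and fold limits, other gene assignments and other overlap rules. The m6A motif in whole peaks was not analysed, since no genome was at hand. Python 3.11.15, numpy 2.4.6, pandas 2.3.3, scipy 1.17.1 and matplotlib 3.10.9 were used, and the overlap code was tested on simulated data.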

Additional observations from a re-analysis of the deposited data

How the results depend on the processing

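Of 64 recomputed values, 51 stayed within 1.5 times the main count or, for shares and medians, within a 95% binomial interval. These 51 include the genes' median fold enrichment at an FDR under 0.01 and a fold of 4 or more. It was 12.4 (OVA) and 9.8 (PBS) in place of 6.01 and 5.38. Both medians moved by more than 1.5 times but stayed inside wide intervals, 3.25 to 13.4 (OVA) and 2.23 to 12.3 (PBS). When an FDR under 0.01 and a fold of 4 or more were required, OVA peaks of the genes numbered 15 in place of 23, those without a PBS counterpart 2 in place of 5, and 20% of all OVA peaks had no counterpart. Of the 2, 1 (on Pld4) was among the 5, and the other, on Ifih1 exon 1, had lost its PBS partner to the limits. The PBS count stayed at 1 (14.4% of all PBS peaks), but that peak was now one at the start of Tlr9 whose OVA partner was lost. Pld4 and Ifih1 then had a peak in the OVA list alone, as had 12.4% of the 13615 genes with a peak at these limits. With an FDR under 0.05, 18.8% of all OVA peaks and 13.7% of all PBS peaks had no counterpart. With a fold enrichment of at least 2, 0 PBS peaks of the genes lacked a counterpart, since the peak called on Prps2 was left out. When only identical ends counted as shared, 20 OVA and 18 PBS peaks of the genes had no counterpart, beside 89.7% and 89.3% of all peaks. When 50% or more of both peaks had to overlap, 7 OVA and 4 PBS peaks of the genes had none, and the shares were 31.4% of OVA and 28.3% of PBS peaks. When overlapping spans with introns counted as shared, the genes' counts stayed at 5 and 1. The stricter overlap rules thus raised the number of peaks without a counterpart, for these genes and for the lists as a whole. The number of genes with a peak in each list, also among the other pathway genes, stayed within 1.5 times under each filter and assignment tried. No replicate could be left out and no paired analysis was possible, because the lists hold no values of single mice. The planned motif search in peaks was not run for want of a genome.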
